A study of Mus musculus with 8 samples.

Results

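The cytosines described here are 2232 positions listed for 5-formylcytosine (5fC) in Tdg knockout mouse embryonic stem cells. Their measured share of reads left unconverted by bisulfite alone was high, and no listed 5-carboxylcytosine (5caC) site lay near them. These 2232 were taken from a list of 7213 5fC cytosines by 3 conditions. At least 50% of reads had to be unconverted after bisulfite alone (2867 cytosines), at most 100 reads could cover the cytosine over both libraries (2615 of those), and no cytosine of the 5caC list could lie within 1000 bp on either strand (2232). Both deposited lists together hold 12019 sites. The cytosines were thus chosen by their measured bisulfite-only reads and total depth in the 5fC libraries, and their levels are given as a description.

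The cells were mouse embryonic stem cells of the strain given as C57BL/6-ICR, grown without feeder cells in serum and LIF. The series holds 8 libraries, 1 for each combination of genotype (Tdg -/- or Tdg fl/fl), antibody (5fC or 5caC) and treatment (traditional bisulfite or chemical protection). The values here come from the 2 Tdg -/- libraries made with the 5fC antibody, 1 protected and 1 with bisulfite alone, and the 5caC list of the same genotype served to set the distance condition. Both 5fC libraries share the Tdg -/- genotype, so there is no comparison with cells that have TDG, and the Tdg fl/fl libraries were not analysed here. Whether the knockout line is a single clone is not stated, and no expression was measured, so stem cell markers could not be checked. Each group had 1 library and there is no replicate check.

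Cytosine methylation is removed in mammals in a stepwise way. DNMT enzymes write 5-methylcytosine (5mC), TET enzymes oxidise it to 5-hydroxymethylcytosine (5hmC), then to 5fC and to 5caC, and the glycosylase TDG cuts 5fC and 5caC out of DNA for repair by an unmodified cytosine. Without TDG, 5fC and 5caC stay in the DNA. Ordinary bisulfite leaves 5mC and 5hmC as C in the reads and turns unmodified cytosine, 5fC and 5caC into T. Treatment with O-ethylhydroxylamine beforehand protects 5fC, which then also reads as C. The 3 readings per cytosine are therefore the unconverted share with bisulfite alone (5mC or 5hmC, plus any cytosine that failed to convert), the rise with protection (the 5fC level, in percentage points), and the share still converted with protection (cytosine, 5caC, or 5fC that was not protected). All 3 refer to DNA that the 5fC antibody had captured, not to all copies of the cytosine in the cells. A captured fragment may owe its capture to 5fC at another cytosine than the one read.

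At these 2232 cytosines nearly all protected reads were unconverted, which the rule and the listing p largely required. The median unconverted share was 61.5% with bisulfite alone (quartiles 54.5 and 69.6) and 100% with protection (quartiles 93.5 and 100), and the median rise was 33.3 percentage points (quartiles 27.3 and 40). Added over all of them, 23597 of 36768 bisulfite-only reads (64.2%) and 46932 of 49228 protected reads (95.3%) were unconverted. No converted read was left in the protected library at 1191 cytosines (53.4%, exact Clopper-Pearson 95% interval 51.3 to 55.4), a single one at 504 (22.6%) and 2 or more at 537 (24.1%). With 0 converted reads, the share of converted copies could still be up to 5.45 to 30%, depending on the site, with a median limit of 18.8%. The rise filled a median of 100% of the share that bisulfite alone had converted (quartiles 84.3 and 100). Of the 1191 cytosines without a converted protected read, 972 could be listed only that way, so these shares are largely set by the selection.

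The reads behind each value were few. Median depth was 20 protected and 14 bisulfite-only reads (ranges 10 to 68 and 10 to 55), and 1760 of the 2232 (78.9%) had under 20 reads in at least 1 library. The label of a mostly 5mC or 5hmC cytosine was checked against this depth: at 270 cytosines (12.1%, interval 10.8 to 13.5) the exact 95% interval of the bisulfite-only share lay at 50% or above, and at the others it reached below 50%. The protected share gives no such check, since the rule and the listing p required a high one, and none was below 75%. Its interval started at 50% or above at all 2232 cytosines, and at 80% or above at 778 (34.9%). The reads carry no molecular identifiers in the sources used here, so intervals and limits cover counting error alone.

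**Figure D1:**
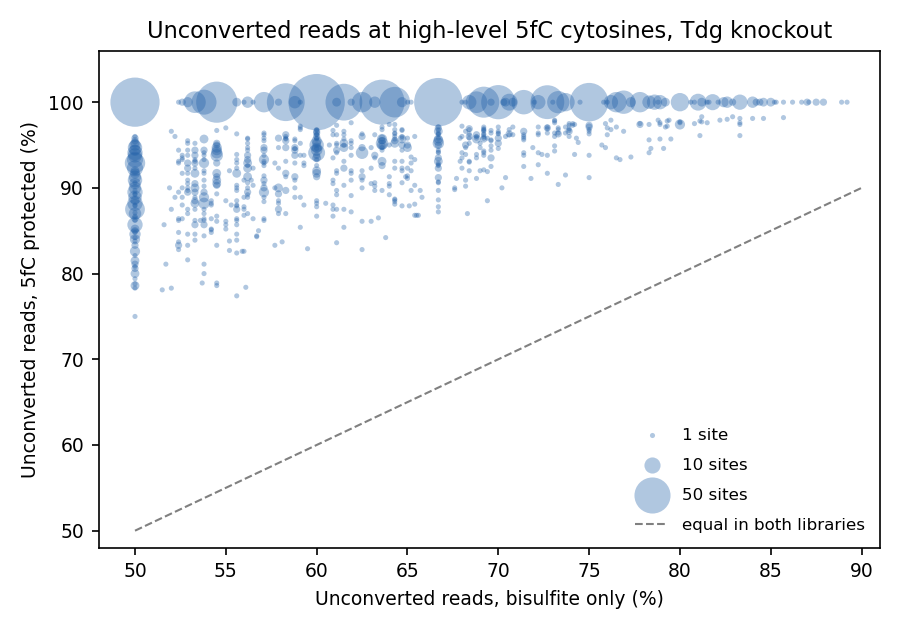
Unconverted reads in percent with bisulfite alone (horizontal axis) and with 5fC protection (vertical axis) at the 2232 cytosines; the area of a circle gives the number of cytosines at that point, and the dashed line marks equal values. All circles lie above the line, and the row along 100% holds the 1191 cytosines with no converted protected read.

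For comparison, 3114 other 5fC cytosines met the same limits on depth and 5caC distance but had a bisulfite-only share under 50%. They are called lower-level cytosines here, and the 2232 high-level cytosines. Their median unconverted share was 27.8% with bisulfite alone and 76.9% with protection, and their median rise was 47.0 percentage points (quartiles 41.2 and 54.5). With protection 170 of them (5.46%, interval 4.69 to 6.32) had no converted read, against 53.4% of the high-level cytosines. Since the rule chose on the bisulfite-only share, and the rise cannot exceed what is left above it, this contrast is a description and has no test.

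Within the rule, classes of higher bisulfite-only level had a smaller rise and a smaller share still converted. In cytosines with a level from 50 to under 60% (853 sites), summed reads gave 53.7% unconverted with bisulfite alone, a rise of 38.0 points and 8.31% still converted. From 60 to under 70% (831 sites) the rise was 31.7 points with 3.98% still converted, and from 70 to under 80% (435 sites) it was 24.2 points with 1.56%. In the 113 cytosines at 80% or more, the values were 82.9%, 16.5 points and 0.604%. Below the threshold the still converted share was larger, 14.3% at levels from 40 to under 50% and 50.0% at levels under 10%. The rise there was between 42.2 and 49.3 points in the 5 classes. The classes are made from the share the rule used, and listing required few converted protected reads in the upper ones. From 70 to under 80%, 89.0% of cytosines had the smallest number of unconverted protected reads that could be listed, and at 80% or more 92.0% did.

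**Figure D2:**
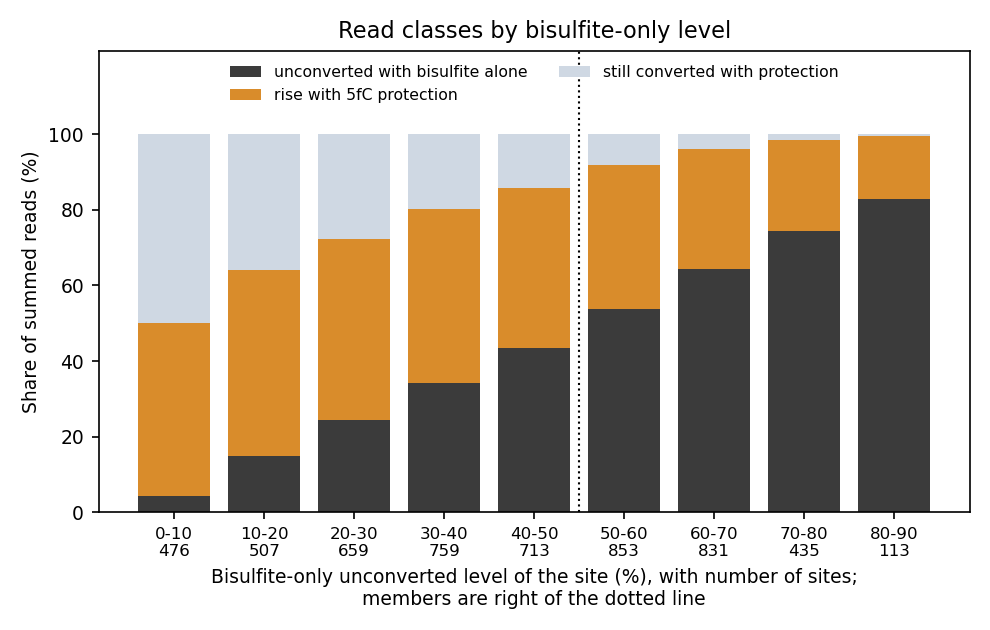
Share of summed reads in percent by class of bisulfite-only level, each class running from its lower bound to just under its upper bound, for the 5346 5fC cytosines of at most 100 reads with no 5caC site within 1000 bp. Black is unconverted with bisulfite alone, orange the rise with protection and grey still converted, and the grey part falls from 50.0% in the lowest class to 0.604% in the highest.

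How a cytosine came to be listed bears on these values. A listed cytosine has 10 or more reads per library, a rise above 0 and an unadjusted p below 0.05 by Fisher's exact test, two-sided, of the reads of the 2 libraries. With the read totals and the bisulfite-only reads of each cytosine held fixed, 1653 of the 2232 (74.1%, interval 72.2 to 75.9) had exactly the smallest number of unconverted protected reads that could be listed, and a further 394 exceeded it by 1 read. Of the 1653, 972 could be listed only with no converted protected read. Among lower-level cytosines 1172 of 3114 (37.6%, interval 35.9 to 39.4) stood at the smallest listable count. The median lowest listable rise was 32.0 points for high-level cytosines, beside the observed median of 33.3, and 41.2 for lower-level cytosines, beside 47.0. At the median depth of 20 protected and 14 bisulfite-only reads, a cytosine could be listed with at most 71.4% unconverted reads before protection, and at 10 and 10 reads with at most 50%. Cytosines with a still higher bisulfite-only share had less room for a rise and therefore had to be covered more deeply to appear.

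Depth moved with the measured level. Those 349 with 20 to 25 reads in total had a median rise of 41.7 points and no bisulfite-only level above 66.7%. With 76 to 100 reads (86 cytosines) the median rise was 20.0 points and the highest bisulfite-only level 89.2%. The share of high-level cytosines among comparable ones went from 29.96% to 72.9% between these depth classes. In the 472 high-level cytosines with 20 or more reads in both libraries, the median unconverted share was 69.6% with bisulfite alone and 95.2% with protection, the median rise was 24.6 points (quartiles 20.0 and 29.6), and 131 (27.8%) had no converted protected read. The share without a converted read was thus lower at this depth than the 53.4% over all depths. The summed protected share was 93.3% there, against 65.6% in the 327 lower-level cytosines of the same depth.

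All 7213 cytosines on the list met the listing p (100% of the list), so passing it carries no information about these 2232. At p below 0.01, 33.8% of the list passed, and 418 high-level cytosines (18.7%) did. With Benjamini-Hochberg adjustment over the whole list and a threshold of 0.01, 4.34% of the list passed, and 11 high-level cytosines (0.493%) did. The list holds only cytosines that had met the listing p, so this adjustment leaves out unlisted ones and does not give a false discovery rate. The listing used the same contrast, and the rule chose on its bisulfite-only reads and caps the rise at 50 points. Nothing is therefore read from these counts.

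The strongest single cytosine by Fisher's exact p was position 11946669 of chromosome 15, minus strand (mm9). All 35 protected reads were unconverted there (exact 95% interval 89.997 to 100%), which allows up to 8.57% converted copies, against 8 of 16 bisulfite-only reads (50%, interval 24.7 to 75.3). The unadjusted p was 2.02e-05 by Fisher's exact test and 0.00346 after Benjamini-Hochberg adjustment over the list. That adjustment leaves out unlisted cytosines, so both values are a description. A second 5fC cytosine on the same strand, 38 bp away at 11946631, had a lower measured bisulfite-only share. There 2 of 13 bisulfite-only reads were unconverted, and 18 of 24 with protection. The bisulfite-only shares of these neighbours rest on 16 and 13 reads and were not tested against each other.

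Position 33051767 of chromosome 4, plus strand, joined a high bisulfite-only share with a full protected one at greater depth. There 26 of 37 bisulfite-only reads (70.3%, interval 53.0 to 84.1) and 53 of 53 protected reads were unconverted, with a Fisher's exact p of 2.06e-05. Position 103215233 of chromosome 14, plus strand, gave 26 of 39 and 57 of 59 reads. On the plus strand of chromosome 15, position 5110622 gave 35 of 47 (74.5%) and 46 of 46. At these 3 positions 25.5 to 29.9 percentage points of the captured copies read as 5fC and 0 to 3.39% stayed converted.

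Position 105854254 of chromosome 3, minus strand, lay 3 bp from another high-level cytosine of the same strand. The first read as C in 13 of 25 bisulfite-only reads (52%) and 28 of 29 protected reads. Its neighbour at 105854251 read as C in 20 of 24 (83.3%) and 28 of 28. With protection both were almost fully unconverted, which the listing p largely required. The measured bisulfite-only shares differed by more than 30 points over about the same number of reads. These neighbours were not tested against each other.

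The highest bisulfite-only shares came with the smallest rises. At position 86538886 of chromosome 8, plus strand, 33 of 37 reads (89.2%, interval 74.6 to 97.0) were unconverted before and 44 of 44 with protection, a rise of 10.8 points (Fisher's exact p = 0.0397, unadjusted). On the minus strand of chromosome 9, position 95570666 gave 24 of 27 and 49 of 49 reads, and on that of chromosome 1, position 129488055 gave 29 of 33 and 50 of 50. All 5 cytosines of highest bisulfite-only share stood exactly at the smallest listable protected count, so a single converted protected read would have kept them off the list. At the other end, 93 cytosines had exactly 50% unconverted reads before and 100% with protection, the largest rise the rule allows. Among these, position 24060341 of chromosome 5 (plus strand) had 7 of 14 bisulfite-only and 17 of 17 protected reads unconverted. The 5fC cytosine 13 bp further on that strand had 2 of 14 and 14 of 20. Another, position 18367183 of chromosome 16, plus strand, had 6 of 12 and 21 of 21, and its neighbour 11 bp before, just outside the rule, 7 of 15 and 21 of 23. Each of these shares rests on 12 to 15 bisulfite-only reads, and the neighbours were not tested against each other.

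The 5 most deeply covered cytosines had 99 or 100 reads in total. They are not a sample of the rest, since depth sets which levels can be listed. Position 31376388 of chromosome 14, minus strand, had 26 of 38 bisulfite-only reads (68.4%, interval 51.3 to 82.5) and 59 of 62 protected reads (95.2%, 86.5 to 99.0) unconverted. It stood among 3 other 5fC cytosines of its strand within 72 bp, none of which met the rule: bisulfite-only shares were 48.4%, 30.2% and 20.0%, and protected shares 76.1%, 51.9% and 54.1%. Position 18225143 of chromosome 16 (minus strand) had 34 of 41 bisulfite-only and 58 of 59 protected reads unconverted, and the nearest other 5fC cytosine was 142029 bp away. Position 52577419 of chromosome 7 (minus strand) had 36 of 42 (85.7%) and 56 of 57. A high-level cytosine 13 bp further on the same strand gave nearly the same shares, 84.6% of 39 reads and 98.1% of 53.

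The values near the limits of the rule were as follows. The 319 cytosines with a bisulfite-only share from 50 to under 52% had a median protected share of 92.9% and a median rise of 42.9 points, and the 266 with 45 to under 50% had 89.2% and 43.2 points. A share of exactly 50% was found at 315 cytosines. The 26 cytosines with 91 to 100 reads had medians of 74.1% before and 93.9% with protection, and the 18 with over 100 and up to 110 reads, outside the rule, 76.7% and 95.05%. The 27 cytosines with a 5caC site over 1000 and up to 1500 bp away had medians of 66.7% and 100%, and the 50 with one over 500 and up to 1000 bp away, also outside, 61.2% and 95.6%.

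The percentage of 5fC cytosines with listed 5caC nearby was lower in the classes of high bisulfite-only share, which is given here as a description. Of the 5fC cytosines with at most 100 reads and a share of 50% or more, 383 of 2615 (14.6%, exact 95% interval 13.3 to 16.1) had a 5caC site within 1000 bp and were left out by the rule, against 1167 of 4281 (27.3%, interval 25.9 to 28.6) with a share under 50%. By class, the percentage was 30.9% (interval 27.5 to 34.5) at shares under 10%, 33.4% (interval 30.03 to 36.9) from 10 to under 20%, 17.9% (15.6 to 20.4) from 50 to under 60% and 8.87% (4.51 to 15.3) at 80% or more. Neighbouring cytosines are not independent, so these intervals are too narrow. The 5caC list has its own listing limit, which needs a rise over its bisulfite-only share, and the lists give no reads for other cytosines, so its part in this trend was not tested. A cytosine missing from the 5caC list is not shown to lack 5caC.

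**Figure D3:**
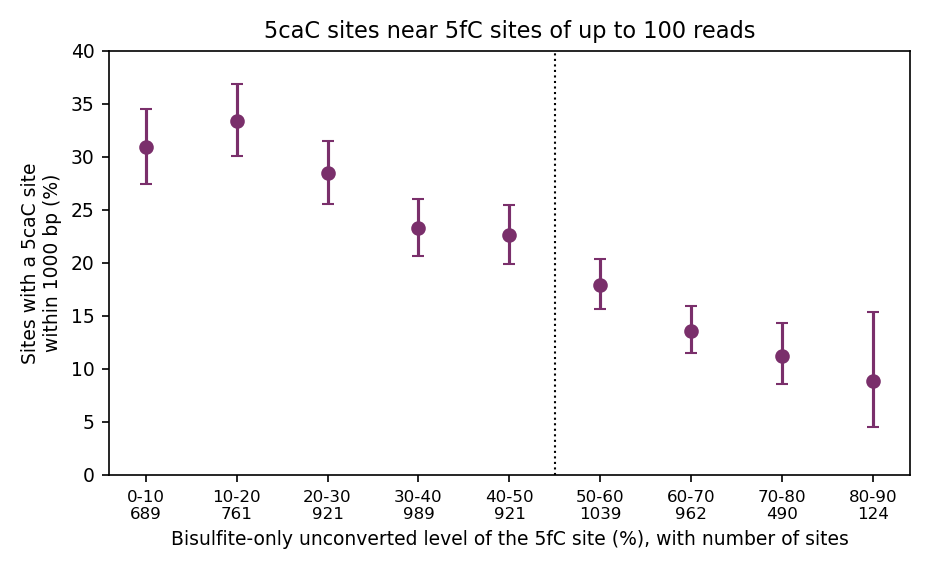
Percentage of 5fC cytosines of at most 100 reads that have a 5caC site within 1000 bp, by class of bisulfite-only share, with exact 95% binomial intervals and the number of cytosines under each class; cytosines right of the dotted line have a share of 50% or more. The percentage is 30.9% in the first class, 33.4% in the second and 8.87% in the last.

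Beyond the excluded 1000 bp, the nearest 5caC site was a median of 116745 bp away (quartiles 34696 and 324813) over the 2224 high-level cytosines with a 5caC site on their sequence, and 95953 bp (31640 and 252271) for the lower-level ones. No 5caC site lay within 10000 bp of 1998 high-level cytosines (89.5%, interval 88.2 to 90.8) and of 88.5% of lower-level ones (87.3 to 89.6).

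Most high-level cytosines stood alone on the list. Another 5fC cytosine of any level lay within 200 bp of 598 (26.8%, exact interval 24.96 to 28.7), against 1117 of the 3114 lower-level cytosines (35.9%, 34.2 to 37.6). The intervals treat neighbouring cytosines as independent, and the difference itself was not tested. Another high-level cytosine lay within 200 bp of 346 (15.5%, 14.0 to 17.1). Joining high-level cytosines within 200 bp gave 2047 groups, of which 1886 held 1 cytosine, 140 held 2, 18 held 3 and 3 held 4.

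Close neighbours were described by whether they shared the class of a cytosine. Over the 1238 pairs of comparable cytosines within 200 bp, 50.8% of the neighbours of a high-level cytosine were high-level too (420 of 827, exact interval 47.3 to 54.2), against 24.7% of the neighbours of a lower-level one (407 of 1649, 22.6 to 26.8). Counting each cytosine once for each pair it enters, 33.4% were high-level, which is the value both percentages would take if class and neighbour were unrelated. Over all 5346 comparable cytosines, paired or not, it was 41.8%. The contrast was widest at 2 to 10 bp, with 62.6% (53.1 to 71.5) against 18.8% (13.9 to 24.4) over 172 pairs. Over 200 and up to 500 bp the values were 42.8% (36.3 to 49.5) and 35.9% (30.96 to 41.05), with overlapping intervals. From there to 1000 bp they were 55.3% and 53.1% over 140 pairs. They stood apart again at over 1000 and up to 5000 bp, with 55.2% (48.7 to 61.6) and 35.8% (30.4 to 41.5) over 269 pairs, and nearly met from there to 50000 bp, with 41.9% and 38.9%. Thus the contrast did not fall evenly with distance. One cytosine can enter several pairs and both shares use the same mixed pairs, so the intervals are too narrow and no p is given. Bisulfite-only shares of 2 neighbours differed by a median of 13.3 points at 2 to 10 bp and 20.2 points at over 5000 and up to 50000 bp.

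**Figure D4:**
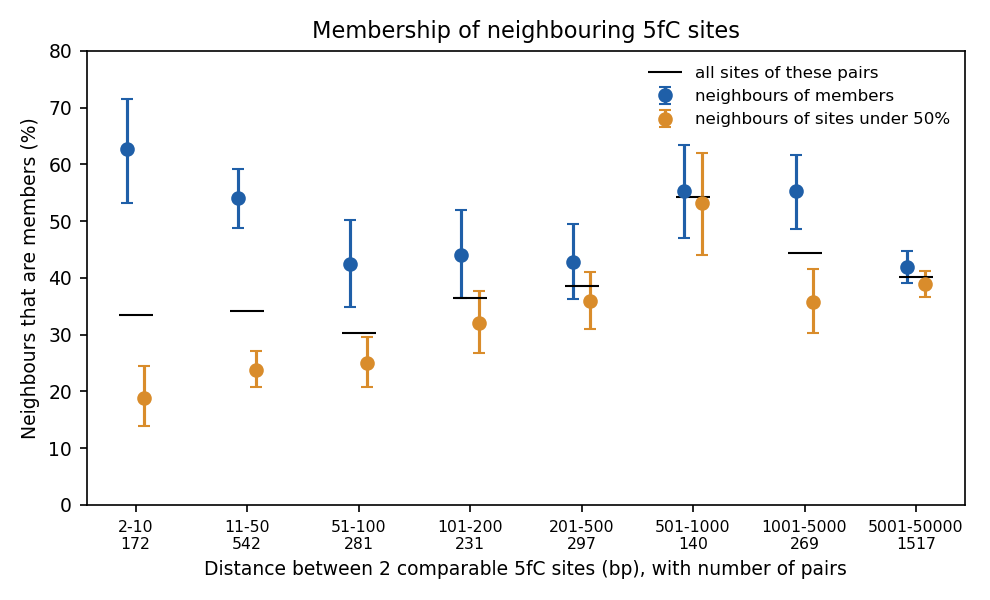
Percentage of neighbouring comparable 5fC cytosines that are high-level (members of the rule), by distance in bp, for neighbours of high-level (blue) and of lower-level cytosines (orange), with exact 95% binomial intervals and the number of pairs. The points are farthest apart at 2 to 10 bp, 62.6% and 18.8%, and black dashes mark the percentage of high-level cytosines over all the pairs of a distance class, each cytosine counted once per pair.

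Close pairs were mostly on the same strand and may share reads. Fragments were sonicated to an average of 400 bp, so 2 cytosines within 200 bp can be read on the same molecules. Of the 1238 comparable pairs 85.0% were on the same strand, and of the 210 pairs of high-level cytosines 193 (91.9%) were. Among same-strand pairs 52.4% of the neighbours of a high-level cytosine were high-level, against 25.6% for a lower-level one, and among the 186 opposite-strand pairs these were 37.4% (interval 27.4 to 48.1) and 20.3% (15.7 to 25.5). Since depth sets which levels can be listed, pairs of like depth were also compared, a choice made after values were seen. With 20 to 30 reads at both cytosines the percentages were 50% and 18.5% (230 pairs), with 31 to 45 reads 49.8% and 29.4% (305 pairs), and with 46 to 100 reads 70.3% and 22.1% (170 pairs). Over all cytosines of these pairs, high-level ones made up 27.0%, 36.9% and 42.6% in the same order. The part of depth in the agreement of neighbours was not tested.

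The 3 groups of 4 high-level cytosines, and 2 of the 18 groups of 3, taken by shortest span, are described next. These 5 contained no 5fC cytosine outside the rule. On chromosome 16, from 76293656 to 76293735, 4 minus-strand cytosines had bisulfite-only shares of 52.4%, 73.3%, 53.3% and 58.3%. They read as C in 30 of 36, 26 of 27, 23 of 26 and 10 of 10 protected reads. On chromosome 5, from 125297843 to 125297965, 4 minus-strand cytosines had 69.2%, 50%, 52.6% and 63.2% before protection, and 3 of them had no converted read with it. The remaining one, at 125297962, gave 19 of 22. In both groups the bisulfite-only shares spread over about 20 points. The protected shares stayed above 83%, but the listing p required a high one at each cytosine.

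On chromosome 14, from 22676496 to 22676623, the group held 3 plus-strand cytosines and 1 on the minus strand. Its last pair, at 22676622 and 22676623, is the 1 CpG of which both cytosines met the rule. A CpG is its own reverse complement, so its cytosines lie 1 bp apart on opposite strands. The plus-strand cytosine gave 9 of 13 bisulfite-only reads (69.2%, interval 38.6 to 90.9) and 32 of 34 protected reads unconverted, and the minus-strand cytosine 6 of 10 (60%, 26.2 to 87.8) and 12 of 12. Their intervals overlap, so no difference between the strands could be seen at this depth.

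The other 2 groups printed are those with the shortest span among the 18 groups of 3. On chromosome 15, 3 plus-strand cytosines at 88990346, 88990348 and 88990352 had 25 bisulfite-only reads each, and unconverted shares of 80%, 64% and 52%. Protected shares were 97.4% of 38 reads, 97.4% of 39 and 87.5% of 40. On chromosome 4, the cytosines at 154532119, 154532121 and 154532137 had 70%, 65% and 68.4% before protection and 95.8%, 95.8% and 100% with it. These shares rest on 19 to 25 bisulfite-only reads each and were not tested against each other.

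**Figure D5:**
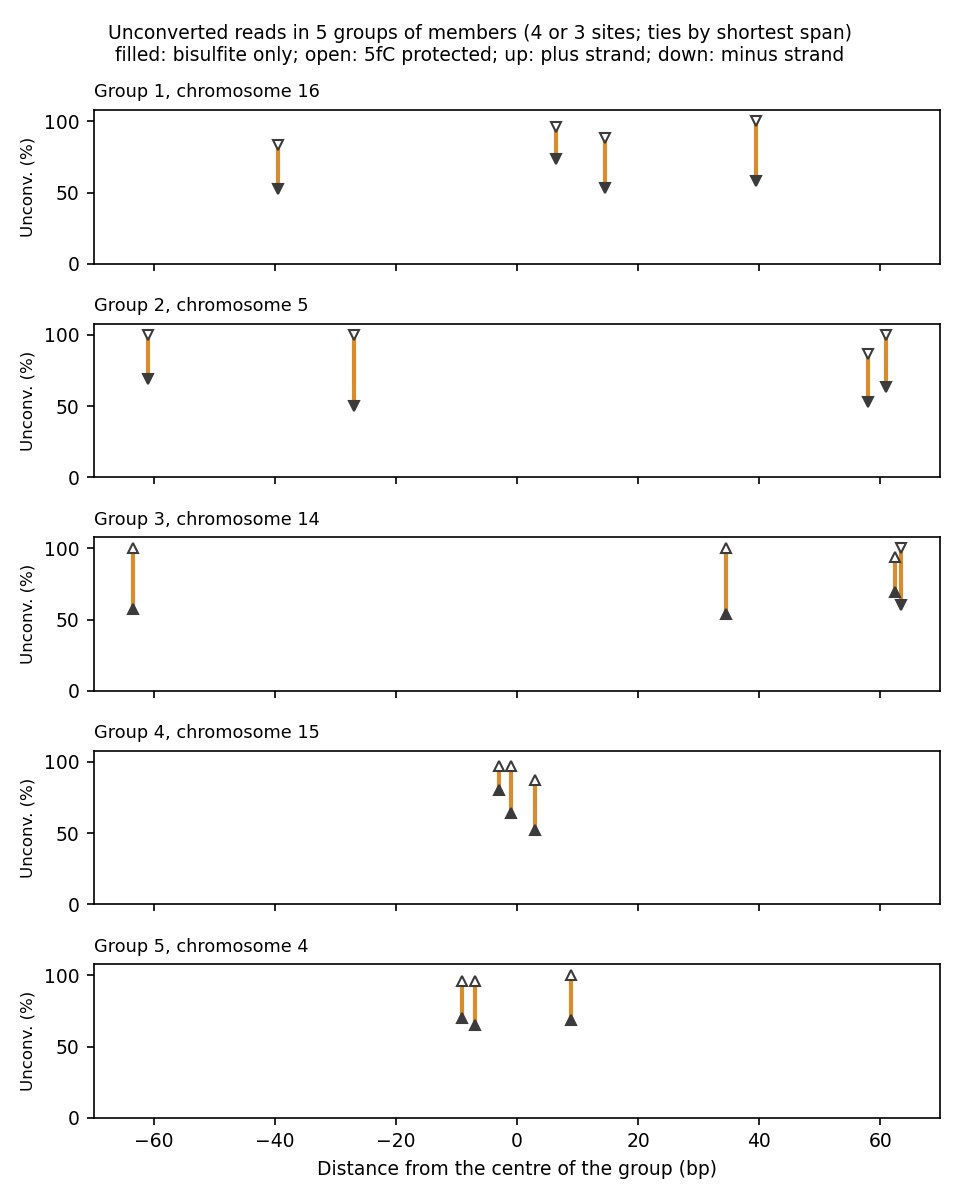
Unconverted reads in percent with bisulfite alone (filled) and with 5fC protection (open) in the 3 groups of 4 high-level cytosines and the 2 of shortest span among the 18 groups of 3, by distance in bp from the centre of the group; triangles point up for the plus and down for the minus strand, and orange lines mark the rise. Bisulfite-only values lie between 50% and 80% and protected values between 83.3% and 100%.

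Both cytosines of a CpG were rarely listed together. Each had to meet the listing limits on reads and p by itself, and an unlisted cytosine is not shown to lack 5fC. Among comparable cytosines 12 CpGs were listed on both strands: 1 with both cytosines high-level, 2 with one of each class and 9 with neither high-level. No adjacent positions on the same strand were listed anywhere among the 7213 5fC cytosines. The strands held 1131 (plus) and 1101 (minus) high-level cytosines, and the split did not pass an exact binomial test (two-sided p = 0.539).

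High-level cytosines were found on all 19 autosomes and X. On autosomes they made up 33.3% (chromosome 19, 52 of 156, exact interval 25.998 to 41.3) to 47.9% (chromosome 8, 148 of 309, 42.2 to 53.6) of comparable 5fC cytosines, and 41.6% together. Chromosome 10 held the most per Mb (1.36) and chromosome 1 the fewest of the autosomes (0.632), over the length from its first to its last listed position. X held 24, or 0.151 per Mb against 0.919 on autosomes, and 24 of its 43 comparable cytosines were high-level (55.8%, interval 39.9 to 70.9). Thus X was sparse in high-level cytosines, as it was in comparable ones, and its interval reached down into the autosomal range. Median bisulfite-only shares of high-level cytosines were alike, 60 to 64.3% on autosomes and 63.6% on X. A further 10 lay on unplaced or random sequence.

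Windows of 1 Mb with a high-level cytosine numbered 1098, of which 553 held 1. The fullest, chosen after their values were seen, was on chromosome 5 between 115026837 and 115995868, with 11 in 9 groups among 22 comparable cytosines. A window of chromosome 11 held 10 between 3001448 and 3099360, among 12 comparable ones, and stood out by its surroundings: 25 of the 40 5fC cytosines there had over 100 reads and fell outside the rule, while the 10 had 22 to 65. Whether that stretch is unique in the genome was not tested. Over all high-level cytosines, 39 (1.75%) had a 5fC cytosine of over 100 reads within 1000 bp.

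The positions are given on the mm9 build as listed. A genome or annotation of that build was not used here, and genes, exons, promoters and the sequence around the cytosines were not analysed.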

How the data were processed

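Per the labels' protocols, sonicated DNA was immunoprecipitated with 5fC or 5caC antiserum and bisulfite-treated with or without protection. Per the submitters' processing notes, Bismark, HOMER and the mm9 build were used, with no step named for each. The authors deposited whole, unnormalized read counts of C and T per cytosine and library. The deposited difference of fractions was within 0.0001 of the protected minus the bisulfite-only share at 7213 of 7213 sites, and the deposited p-value within 1% of a two-sided Fisher's exact test at 7213. Removal of copied reads is not stated.

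Columns were assigned to libraries by name, mark, genotype and sample title. Shares carry exact (Clopper-Pearson) 95% intervals, medians carry quartiles, and a count of 0 allows up to 3 counts of its total. No comparison between conditions was possible with 1 library per group. Functions were tested on simulated data. Python 3.11.15 was used with scipy 1.17.1, pandas 2.3.3, numpy 2.4.6 and, for plots, matplotlib 3.10.9.

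The rule, the gene lists and the comparisons were chosen with earlier results of these data known. Named cytosines were the 5 of smallest p, highest bisulfite-only share, largest rise (ties by p) and most reads, the 5 groups with most members (ties by shortest span), and CpGs with both cytosines in the rule. Examples of each are printed. Lists of pluripotency, DNA methylation and imprinted genes could not be applied without an mm9 annotation. Alternatives changed each part of the rule, the reads required per library, the p limit, the joining distance and the counting of groups.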

Additional observations from a re-analysis of the deposited data

How the results depend on the processing

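Of 105 recomputed values, 52 stayed within the interval of the reported one (counts: within 1.5 times). The strand, depth-class and first-2-of-a-group comparisons were added after seeing the data. With a bisulfite-only threshold of 60%, 1379 cytosines remained, with medians of 66.7% before protection and a 29.9-point rise. No converted read was left at 64.8%, 82.1% stood at the smallest listable count, 23.3% had a 5fC neighbour and 37.2% of neighbours were members. At 40% the medians were 58.3%, 95.8% and 36.4 points, with 43.8% unconverted throughout, 66.9% at the smallest count, 61.3% of neighbours members and 3 CpGs with both cytosines in. With at most 50 reads they were 60%, 35.7 points, 60.1% and 78.6%. With no upper limit the protected median was 99.0%, 50.0% had no converted read, 71.0% stood at the smallest count, 28.7% had a neighbour, 64.1% of neighbours were members and 2 CpGs had both cytosines in. At 15 reads per library 983 cytosines remained, with medians of 66.7%, 95.7% and 28.1 points, then 34.8%, 64.3%, 24.4% and 59.9% in the order used for the 60% threshold. At 20 reads these were 472, 69.6%, 95.2%, 24.6 points, 27.8%, 60.4%, 23.1% and 66.7% (interval 57.8 to 74.7 for the last). High-level cytosines were 472 of the 799 comparable ones of this depth. With p below 0.01, 418 remained, with medians of 57.1% and 39.6 points, 57.2% without a converted read, 17.9% with a neighbour, 38.1% of neighbours members, 47.8% on the plus strand and 0 CpGs with both cytosines. Joining within 100 or 500 bp gave 23.1% and 30.9% with a neighbour. Neighbours were members in 37.4% of opposite-strand pairs, 70.3% of pairs with 46 to 100 reads and 55.3% of first pairs per group. For first pairs the value was 23.8% beside a lower-level cytosine, and 34.8% over all cytosines of these pairs. The share of members over all comparable cytosines also moves with the settings, so the neighbour percentages alone are not read as agreement. Other distances to 5caC, autosomes alone, or 1 cytosine per group moved none of the recomputed values out of its interval. The levels and the counts thus move with the depth and p limits. No paired analysis was possible because each group had 1 library.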
